A study of Mus musculus with 12 samples.

Results

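The response of Bub1-deficient melanoma cells to radiation was taken from 6 of the 12 RNA-seq libraries of the series. B16F10 is a mouse melanoma line that grows in culture and makes pigment. Its cells carried either a vector control (VC) or a CRISPR-Cas9 disruption of Bub1 (Bub1KO), and each was left untreated or given 8 Gy, with 3 libraries in each of the 4 groups. The comparison described here is Bub1KO at 8 Gy against untreated Bub1KO, over the 14721 of 55421 listed genes that had a normalized count of 10 or more in at least 3 of the 12 libraries. The 6 VC libraries enter the same fit and show where the response of Bub1KO cells differs. Of protein-coding genes next to that filter, Cldn15 was kept with a third-highest value of 10.1 and Isyna1 was left out with 9.98. The sources used here do not give the time from irradiation to RNA extraction, the number of Bub1KO clones or the guide. No label says that libraries of a group are separate cultures, so p-values measure only a spread between samples that may be technical.

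Bub1 is a kinase of the spindle assembly checkpoint, which holds a cell in mitosis until its chromosomes are attached to the spindle. Ionizing radiation breaks both strands of DNA. The breaks activate ATM and p53, p53 induces the Cdk inhibitor p21, and p21 lets the DREAM and RB repressors shut down genes of replication and mitosis. Irradiated cells can also expose their own nucleic acids to RNA and DNA sensors, which switch on interferon-stimulated genes. The series concerns a role of Bub1 outside the nucleus, in how double-stranded RNA and stress granules behave after DNA damage. The integrated stress response, in which phosphorylation of the initiation factor eIF2 raises translation of Atf4, is a further program linked to stress granules.

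The 6 libraries held between 22618141 and 30265326 reads in genes. Mitochondrial reads were 2.31% to 2.93% of the untreated and 3.53% to 3.81% of the irradiated Bub1KO libraries. Untreated Bub1KO replicate 1 stood apart from replicates 2 and 3, with a chi-square per gene of 55.2 and 51.8 against 8.02 between those 2. Genes of high GC content were low in it compared with those of low GC content (median log2 deviation from the mean of all libraries, top minus bottom quartile of GC, -0.70, against 0.030 and 0.073). The same measure was 0.21, 0.28 and 0.076 in irradiated Bub1KO libraries. In VC it was -0.13, -0.36 and -0.19 untreated and 0.26, 0.34 and 0.16 irradiated. Counts of called genes are also given without untreated Bub1KO replicate 1 for some lists, and counts of other lists moved too. The 7 melanocyte markers summed to between 542890 and 578932 normalized counts in the 6 libraries, endothelial markers to at most 13.1, and keratinocyte and epithelial markers to between 74.8 and 133, from Cdh1. Cdkn2a and Cdkn2b, which encode the Cdk inhibitors p16 and p15, were listed at 0 in all of them.

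Promoter sequence is shown for the 3 programs on which the results turn, to let the shared letters be seen beside the values that follow. The windows come from RefSeq (GRCm38.p6) and run from 220 bases before to 30 bases after the annotated start, 5′ to 3′ on the gene's strand as the table gives it. A stretch just after the start was found in that sense in GENCODE transcripts for each gene printed except Trib3, whose orientation rests on the table alone. Searches used the table's full windows of 300 bases on both strands, and 10096 of the tested genes had a window. In the interferon-stimulated Isg15 (chr4:156200789-156201038, minus strand) and Ifit1 (chr19:34640669-34640918, plus strand), capitals mark the core of the interferon-stimulated response element, GAAANNGAAA or its reverse complement. The matches overlap each other in Isg15.
Isg15: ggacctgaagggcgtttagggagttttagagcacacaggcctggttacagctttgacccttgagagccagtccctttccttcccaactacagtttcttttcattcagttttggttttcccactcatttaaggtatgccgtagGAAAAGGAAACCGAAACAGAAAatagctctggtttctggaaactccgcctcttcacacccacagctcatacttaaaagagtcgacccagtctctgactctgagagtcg
Ifit1: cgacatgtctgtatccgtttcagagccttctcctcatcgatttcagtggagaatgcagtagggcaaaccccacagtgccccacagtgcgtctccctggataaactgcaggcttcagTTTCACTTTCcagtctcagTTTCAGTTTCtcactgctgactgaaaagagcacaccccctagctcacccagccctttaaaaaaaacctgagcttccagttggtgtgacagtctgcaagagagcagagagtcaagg
In the stress-response genes Trib3 (chr2:152344031-152344280, minus strand), Chac1 (chr2:119351022-119351271, plus strand) and Asns (chr6:7693180-7693429, minus strand), capitals mark TGATGNAA or its reverse complement. It is the core of the element that Atf4 binds with C/EBP proteins. The match in Trib3 begins at base 15 after the annotated start.
Trib3: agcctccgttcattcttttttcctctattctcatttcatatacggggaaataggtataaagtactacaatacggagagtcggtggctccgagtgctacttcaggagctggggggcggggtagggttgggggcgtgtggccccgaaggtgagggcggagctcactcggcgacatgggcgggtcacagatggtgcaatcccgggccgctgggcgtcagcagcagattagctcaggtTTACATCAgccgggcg
Chac1: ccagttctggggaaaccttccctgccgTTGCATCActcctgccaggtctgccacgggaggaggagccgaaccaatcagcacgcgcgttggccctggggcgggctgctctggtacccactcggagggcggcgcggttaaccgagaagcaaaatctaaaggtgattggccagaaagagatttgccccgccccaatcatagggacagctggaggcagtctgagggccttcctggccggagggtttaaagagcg
Asns: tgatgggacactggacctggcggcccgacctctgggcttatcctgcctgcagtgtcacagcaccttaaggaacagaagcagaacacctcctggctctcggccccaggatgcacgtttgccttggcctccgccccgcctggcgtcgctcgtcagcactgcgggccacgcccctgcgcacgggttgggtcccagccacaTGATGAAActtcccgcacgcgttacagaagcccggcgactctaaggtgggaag
In Mki67 (chr7:135716350-135716599, minus strand) and Cdk1 (chr10:69352883-69353132, minus strand), capitals mark TTTGAA, the cell cycle genes homology region read by DREAM.
Mki67: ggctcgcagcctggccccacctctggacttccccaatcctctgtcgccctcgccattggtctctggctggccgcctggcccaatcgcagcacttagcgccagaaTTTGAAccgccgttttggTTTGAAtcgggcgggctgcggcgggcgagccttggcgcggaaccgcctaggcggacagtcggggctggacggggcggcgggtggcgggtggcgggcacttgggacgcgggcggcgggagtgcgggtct
Cdk1: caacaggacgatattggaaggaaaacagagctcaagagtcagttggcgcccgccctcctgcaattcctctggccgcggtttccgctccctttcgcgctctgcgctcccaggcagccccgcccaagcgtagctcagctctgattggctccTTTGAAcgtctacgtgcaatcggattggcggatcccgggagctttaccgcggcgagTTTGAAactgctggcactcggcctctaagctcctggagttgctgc
GAAANNGAAA stood in 22 of the 49 interferon-stimulated genes with a window (44.9%), against 3.35% of all 10096. TGATGNAA stood in 12 of 33 genes of the integrated stress response (36.4%, against 2.7%), and TTTGAA in 33 of 46 mitotic genes (71.7%, against 14.2%). The windows of Irf7 and Ccnb1, members of the first and the third of these groups, held no match to their group's motif. These counts describe letters in a window and not binding.

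Bub1 itself, on chromosome 2 (GRCm38, 127801122 to 127831865, minus strand), had normalized counts (reads divided by a size factor for each library) of 1834, 1565 and 1588 in untreated and 886, 989 and 1119.8 in irradiated Bub1KO cells. The groups did not overlap, and the log2 fold change was -0.74 (SE 0.0938, limma adjusted p = 2.21e-05). VC cells were at 2932 ± 226 and 1484 ± 22.8 (mean ± SD, n = 3), so each Bub1KO group was below the VC group of the same treatment. Reads were not split by exon, and these counts do not show whether protein is made.

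Irradiation changed close to every second tested gene of Bub1KO cells: 3746 rose and 3523 fell at a limma adjusted p under 0.05, which is 49.4% of the 14721 (25.4% higher, 23.9% lower). Large changes were mostly upward, with 1514 genes at least 2-fold higher (10.3%) and 287 at least 2-fold lower (1.95%). The values of irradiated and untreated libraries did not overlap for 54.9% of the genes tested. Under a filter of 50 in place of 10, 803 genes were at least 2-fold higher and 225 at least 2-fold lower. Long noncoding RNAs rose more often than they fell, with 428 higher (27.4%) and 96 lower (6.14%) of 1563. Because so many genes passed, the counts of each gene list below stand beside these shares. Reads were divided by a size factor for each library, so rises and falls are relative to the other genes. A change in total RNA per cell was not tested.

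p53 target genes rose together. Of the 55 tested 46 rose and 0 fell, and their median log2 fold change was 1.09 against 0.028 over all genes. Cdkn1a, which encodes p21, had 9343, 7367 and 8113 normalized counts in untreated cells and 30979, 30356 and 28344 after 8 Gy (log2 fold change 1.86, SE 0.0892, limma adjusted p = 4.27e-09). Every irradiated library lay far above every untreated one. Mdm2, the ubiquitin ligase that degrades p53, went from 2483, 2030.2 and 2086 to 4392, 4403 and 4788, without overlap (log2 fold change 1.05, SE 0.0792, limma adjusted p = 2.15e-07). Btg2, an antiproliferative factor, went from 106 ± 4.15 to 653 ± 11 (log2 fold change 2.61, SE 0.0892, limma adjusted p = 2.17e-10). Plk2, a polo-like kinase, went from 229 ± 27.1 to 1455 ± 50.1, and Ak1, an adenylate kinase, from 328 ± 55.2 to 2709 ± 165. By role, 10 of 11 arrest genes, 4 of 6 feedback genes and 9 of 10 death genes rose. Among the death genes, Tnfrsf10b, the TRAIL receptor, went from 48.9 ± 7.65 to 208 ± 9.01 (log2 fold change 2.07, SE 0.138, limma adjusted p = 7.27e-08). Pmaip1, Perp, Gdf15 and Abcb1a stayed under the filter. Without untreated replicate 1, 47 rose and 0 fell, beside 25.4% and 26% of all genes.

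Other genes of cell death moved in both directions, with 16 of 38 higher and 5 lower (median 0.23). In the BCL2 family 7 of 12 rose, among them the survival gene Bcl2l1, from 878, 1116 and 1111 to 2236, 2115 and 2190.1 (log2 fold change 1.08, SE 0.0888, limma adjusted p = 4.51e-07), and the BH3-only killer Bmf, from 146 ± 14.9 to 337 ± 29.8. Cflar, the brake on caspase-8, rose from 1478 ± 149.7 to 2758 ± 122. Members that fell included Birc5 (survivin, also a mitotic protein), Casp2, Fadd and Cycs.

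Genes of mitosis fell almost without exception. Of 58 tested, 57 fell and 1 rose, and the median was -1.06, with 33 at least 2-fold lower. Mki67, the proliferation marker, had 17181, 14276 and 13936 normalized counts untreated and 5486, 5378 and 5934 irradiated (log2 fold change -1.43, SE 0.0819, limma adjusted p = 1.98e-08). Hmgb2, a chromatin protein of dividing cells, went from 6619.8, 5339.6 and 5877 to 1921, 1758 and 1742 (log2 fold change -1.71, SE 0.083, limma adjusted p = 4.59e-09). Every irradiated library was below every untreated one for both genes. Cdk1, the kinase that drives entry into mitosis, went from 6295, 5777 and 6335 to 3115, 3440.1 and 3509, without overlap (log2 fold change -0.87, SE 0.0718, limma adjusted p = 4.59e-07). Its partner Ccnb1, the mitotic cyclin B1, fell from 3451 ± 308 to 1649 ± 159 (log2 fold change -1.07, SE 0.0843, limma adjusted p = 3.25e-07). All 13 genes of mitotic entry, all 8 of the spindle checkpoint and all 24 of kinetochore and spindle fell; Aurkb, the kinase that corrects attachments, went from 2881 ± 64.3 to 1324 ± 14.7, and Racgap1, which acts in cytokinesis, from 8785 ± 88.4 to 3923 ± 175. The member that rose was Pttg1, securin, from 669.8, 558 and 583 to 818, 895 and 765 (log2 fold change 0.45, SE 0.107, limma adjusted p = 0.00307). Several of the 12 largest falls among abundant genes also act in mitosis: Knl1 and Ska1 at the kinetochore, Sgo1 on centromeric cohesin, Pbk as a mitotic kinase and Ccna2 as cyclin A2. Ska1 went from 829 ± 133 to 276 ± 14.9 (log2 fold change -1.57, SE 0.119, limma adjusted p = 2.15e-07). In bulk RNA, fewer cells in a phase and less RNA per cell cannot be told apart.

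**Figure D1:**
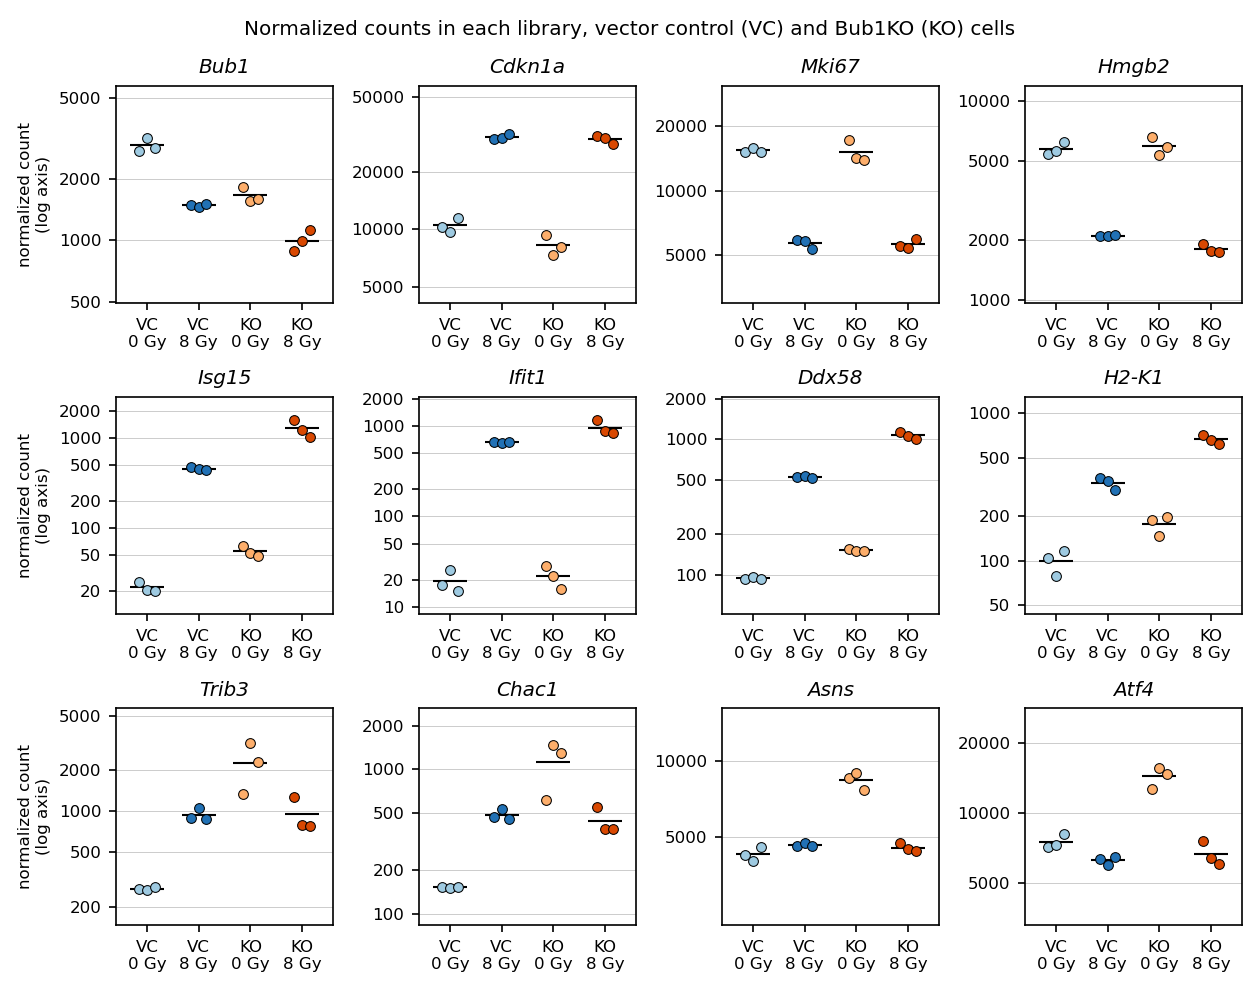
Normalized counts of 12 genes in each of the 12 libraries (log axes), by genotype (VC, vector control; KO, Bub1KO) and dose; points are libraries and bars group means, n = 3. Mki67 fell and Cdkn1a and Isg15 rose in both genotypes, while Trib3, Chac1, Asns and Atf4 were highest in untreated Bub1KO and fell there after 8 Gy.

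Replication genes fell with them. Of 55 genes of G1/S and replication 48 fell and 5 rose (median -0.98), including all 16 tested polymerase and fork genes and all 6 of nucleotide supply. Pcna, the sliding clamp of the replication fork, went from 9258, 9264 and 9906 to 3621, 3857 and 4126 (log2 fold change -1.29, SE 0.065, limma adjusted p = 6.23e-09). Rrm2, which makes deoxynucleotides, fell from 12394 ± 1299 to 5569 ± 146, and the helicase subunit gene Mcm6 from 13453 ± 996 to 6025 ± 358. The 5 that rose act before the restriction point: the D cyclins Ccnd1, Ccnd2 and Ccnd3, Cdk6 and Rb1. Ccnd1 had 3443, 3181 and 3064 untreated and 14053, 12394 and 13488 irradiated, with the groups far apart (log2 fold change 2.04, SE 0.0676, limma adjusted p = 1.71e-10). E2f7 and E2f8, atypical E2F repressors, were among the largest falls, E2f7 from 442 ± 54.1 to 158 ± 21.7 and E2f8 from 808 ± 53.6 to 297 ± 32.

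The histone genes that passed the filter did not follow the replication genes as a group. Of 70 genes of replication-dependent histones 16 passed it, 8 rose and 2 fell, with a median of 0.78. The other 54 were too low to test, and how well these libraries capture histone RNA was not tested. Hist1h1c, a linker histone, went from 204, 297 and 317 to 1476, 1501 and 1461 (log2 fold change 2.46, SE 0.131, limma adjusted p = 1.02e-08), and Hist1h2bc from 74.4 ± 17.9 to 286 ± 21.8. Hist1h1e went the other way, from 99.2 ± 12.3 to 29.2 ± 1.11 (log2 fold change -1.72, SE 0.311, limma adjusted p = 0.000427). The other fall, Hist1h2bb, lost its call in 8 of 17 settings (limma adjusted p at most 0.122). Histone genes are near-identical copies, and the sources used here do not say how reads that map to several places were counted.

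Repair genes mostly fell, and end joining was mixed. Of 51 genes of double-strand break repair 33 fell and 5 rose (median -0.50). In homologous recombination and the Fanconi pathway 20 of 24 fell. Exo1, an end-resection nuclease, went from 1405, 1309.6 and 1337 to 581, 668 and 756, without overlap (log2 fold change -1.02, SE 0.0901, limma adjusted p = 8.58e-07). Brca1 was the 1 member of that group that rose, from 4424, 4183 and 3922 to 6671, 7413 and 7391 (log2 fold change 0.78, SE 0.0679, limma adjusted p = 7.76e-07), while its partner Bard1 fell from 931 ± 76.7 to 413 ± 39.2. In end joining 3 of 13 rose and 4 fell. Xrcc5, the Ku80 subunit that holds broken ends, went from 2027 ± 131 to 2897 ± 102, and Polm, an end-joining polymerase, from 267 ± 59.4 to 459 ± 24. Another list held genes linked to senescence, namely chromatin genes, cell cycle inhibitors and Glb1. Of its 14 tested genes 3 rose and 7 fell (3 and 9 without untreated replicate 1). The rises were Glb1, Hmga2 and Cdkn1a, whose values are given above. Hmga2 had overlapping groups, and its call ended in 8 of 18 settings. Lmnb1, lamin B1, fell from 5854, 5568 and 5504 to 2438, 2015 and 2192 (log2 fold change -1.35, SE 0.072, limma adjusted p = 1.02e-08), Hmgb1 from 5704 ± 633 to 2262 ± 117, and Glb1, the lysosomal beta-galactosidase, rose from 2912 ± 55.6 to 4279 ± 188.

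Interferon-stimulated genes rose, with a higher median than any other pathway list here. Of 76 listed, 60 passed the filter, of which 53 rose and 1 fell, with a median of 1.53. The median is the same with the 1 member that had no read in 1 of the groups set at its bound (a floor of 3 reads per library). Isg15, a ubiquitin-like modifier, had 64, 52.6 and 49.5 normalized counts untreated and 1590.1, 1241 and 1018 irradiated (log2 fold change 4.49, SE 0.161, limma adjusted p = 3.55e-10). Ifit1, which binds RNA with a foreign 5′ end, went from 28.5, 22.2 and 15.8 to 1156, 883 and 832 (log2 fold change 5.39, SE 0.215, limma adjusted p = 6.97e-10). Irf7, the factor that amplifies interferon production, went from 6.1, 3.29 and 6.32 to 145, 120.3 and 80.9 (log2 fold change 4.22, SE 0.377, limma adjusted p = 9.5e-07). In all 3 genes the groups were far apart, and irradiated replicate 1 was the highest and replicate 3 the lowest library. Ifi27 rose from 949 ± 86.7 to 4878 ± 253, Ifitm3, which blocks virus entry, from 739 ± 101 to 3768 ± 287, and the IFIT genes Ifit3 and Ifit3b from 55.8 ± 14.2 to 1234 ± 349.6 and from 13.8 ± 2.38 to 372 ± 117. Zc3hav1, an antiviral RNA-binding protein, was the member that fell, from 3781 ± 274 to 3156 ± 96.2. Reads may be shared within the IFIT, OAS and GBP families.

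Interferon RNA itself was close to absent from the counts. The 21 ligand genes together had 9 reads over the 12 libraries, 17 of them had 0, and Ifnb1 was listed at 0 in each library. Reads of related Ifna genes may be shared, and the sources used here do not say how such reads were counted. Of 9 tested receptor and kinase genes 4 rose and 0 fell (2 without untreated replicate 1), among them the receptor chains Ifngr2, from 1834 ± 97.6 to 2864 ± 102, and Il10rb, from 1548 ± 61.9 to 2100.4 ± 52.4.

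All 6 tested RNA sensor genes rose, and 5 more that were listed stayed under the filter. Among the 6, 1 had no read in untreated Bub1KO cells and passed the filter only through libraries of other groups. Of 12 genes for brakes, editing and decay of RNA, all tested, 4 fell and 3 rose. Over the 29 genes of the RNA sensing pathway 13 rose and 7 fell (median 0.22). Ddx58, which encodes RIG-I, went from 156, 149 and 151 to 1140.2, 1056 and 1005 (log2 fold change 2.80, SE 0.0847, limma adjusted p = 7.46e-11). Ifih1, which encodes MDA5, the sensor of long double-stranded RNA, went from 124, 109 and 108 to 451, 446 and 491 (log2 fold change 2.02, SE 0.103, limma adjusted p = 7.16e-09). Dhx58, which encodes LGP2, a helper of MDA5, went from 27.4, 42 and 34.8 to 345, 286 and 242 (log2 fold change 3.04, SE 0.168, limma adjusted p = 1.47e-08). None of the 3 had overlapping groups. Dhx9, a helicase that unwinds double-stranded RNA, fell from 13712 ± 1617 to 7845 ± 97.1, Dicer1 from 2401 ± 117 to 1889 ± 99.5, Abce1, an inhibitor of RNase L, from 5683 ± 574 to 3574 ± 406, and Pnpt1, which degrades mitochondrial RNA, from 698 ± 96.4 to 454 ± 55.8. The adaptor Mavs did not pass. Of 9 genes of cytosolic DNA sensing 2 rose and 5 fell (3 without untreated replicate 1). Banf1, which shields DNA from cGAS, went from 3893 ± 581 to 2162 ± 88.4 and Zdhhc1 from 153 ± 26.3 to 272 ± 6.1. Cgas was at 365 ± 54.5 and 292 ± 32.8, a fall whose call ended in 11 of 18 settings (limma adjusted p at most 0.155).

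Genes that present antigen or engage immune cells rose. Of 18 tested genes of MHC class I presentation 12 rose and 0 fell (median 0.67), and of 15 immune ligands 12 rose and 1 fell (median 0.89). H2-K1, a class I heavy chain, went from 188, 147 and 197 to 714, 658 and 617 (log2 fold change 1.90, SE 0.151, limma adjusted p = 3.38e-07), and Tap1, the peptide transporter, from 36.6, 41.1 and 40.02 to 331, 310.4 and 305 (log2 fold change 2.98, SE 0.127, limma adjusted p = 1.44e-09). B2m, the light chain, went from 4740.4 ± 332 to 7802 ± 260.2, and H2-D1 from 761 ± 99.5 to 2297 ± 165. Cd274, which encodes the checkpoint ligand PD-L1, had 206, 161 and 179 untreated and 287, 265 and 288 irradiated (log2 fold change 0.62, SE 0.113, limma adjusted p = 0.000452). Cd276 rose from 172 ± 2.97 to 320.3 ± 1.71, Lgals9 from 1171 ± 202 to 3354 ± 78.4 and the NKG2D ligand Ulbp1 from 2.88 ± 1.04 to 23.7 ± 2.45. The ligand that fell was Cd47, the signal against phagocytosis, from 1676 ± 219 to 1315 ± 45.9 (its call ended in 2 of 18 settings). Reads of related H2 genes may be shared.

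Of 28 tested genes of NF-kB signalling, cytokines and chemokines 17 rose and 1 fell (median 0.61), or 19 and 3 without untreated replicate 1. A further 19 stayed under the filter, Il6, Il1a, Il1b and Tnf among them. Ccl5, a T cell chemokine, went from 29.5, 28.8 and 28.4 to 702, 685 and 553 (log2 fold change 4.43, SE 0.124, limma adjusted p = 5.14e-11), and Cxcl10 from 93.5, 118 and 112 to 581, 479 and 621 (log2 fold change 2.36, SE 0.129, limma adjusted p = 1.31e-08). The cytokine genes Il18 and Lif rose from 85.7 ± 12.7 to 338 ± 32.9 and from 7.83 ± 3.15 to 47 ± 5.19. Nfkb1 fell from 1600.2 ± 131 to 1159.8 ± 94.8. Summed markers of leukocytes and macrophages moved with these lists, from 28.8 to 31.5 in untreated and 271 to 288 in irradiated Bub1KO libraries (172 to 196 in irradiated VC). The sum came almost wholly from Cd68, a lysosomal protein, and Lyz2, while Ptprc, Adgre1, Itgam and Cd3e were listed at 0 in all 6 libraries.

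Stress granule proteins fell as a list. Of 38 tested 29 fell and 1 rose, with a median of -0.46 and no member 2-fold lower. Hnrnpa1, an RNA-binding protein of granules, went from 18596, 15994 and 16464 to 8513, 8407 and 8755 (log2 fold change -0.99, SE 0.0685, limma adjusted p = 1.01e-07), and Tardbp, which encodes TDP-43, from 13879.9, 11536 and 11835 to 6895, 6304 and 6743 (log2 fold change -0.90, SE 0.0781, limma adjusted p = 7.46e-07). Rbm3, a cold-inducible RNA-binding protein, fell from 12993 ± 748 to 7408 ± 765. Atxn2 was the member that rose, from 1752 ± 187 to 2215 ± 95.1. Genes that silence retroelements and methylate DNA also fell, 14 of 24 with 1 higher (median -0.44). Uhrf1, which guides DNA methylation at replication forks, went from 8691, 11082 and 10958 to 4380.3, 4426 and 4631 (log2 fold change -1.18, SE 0.0863, limma adjusted p = 1.55e-07), the H3K9 methyltransferase gene Suv39h1 from 2552 ± 49.9 to 1359 ± 85.8, and Hells from 2752 ± 367 to 1463 ± 148.

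**Figure D2:**
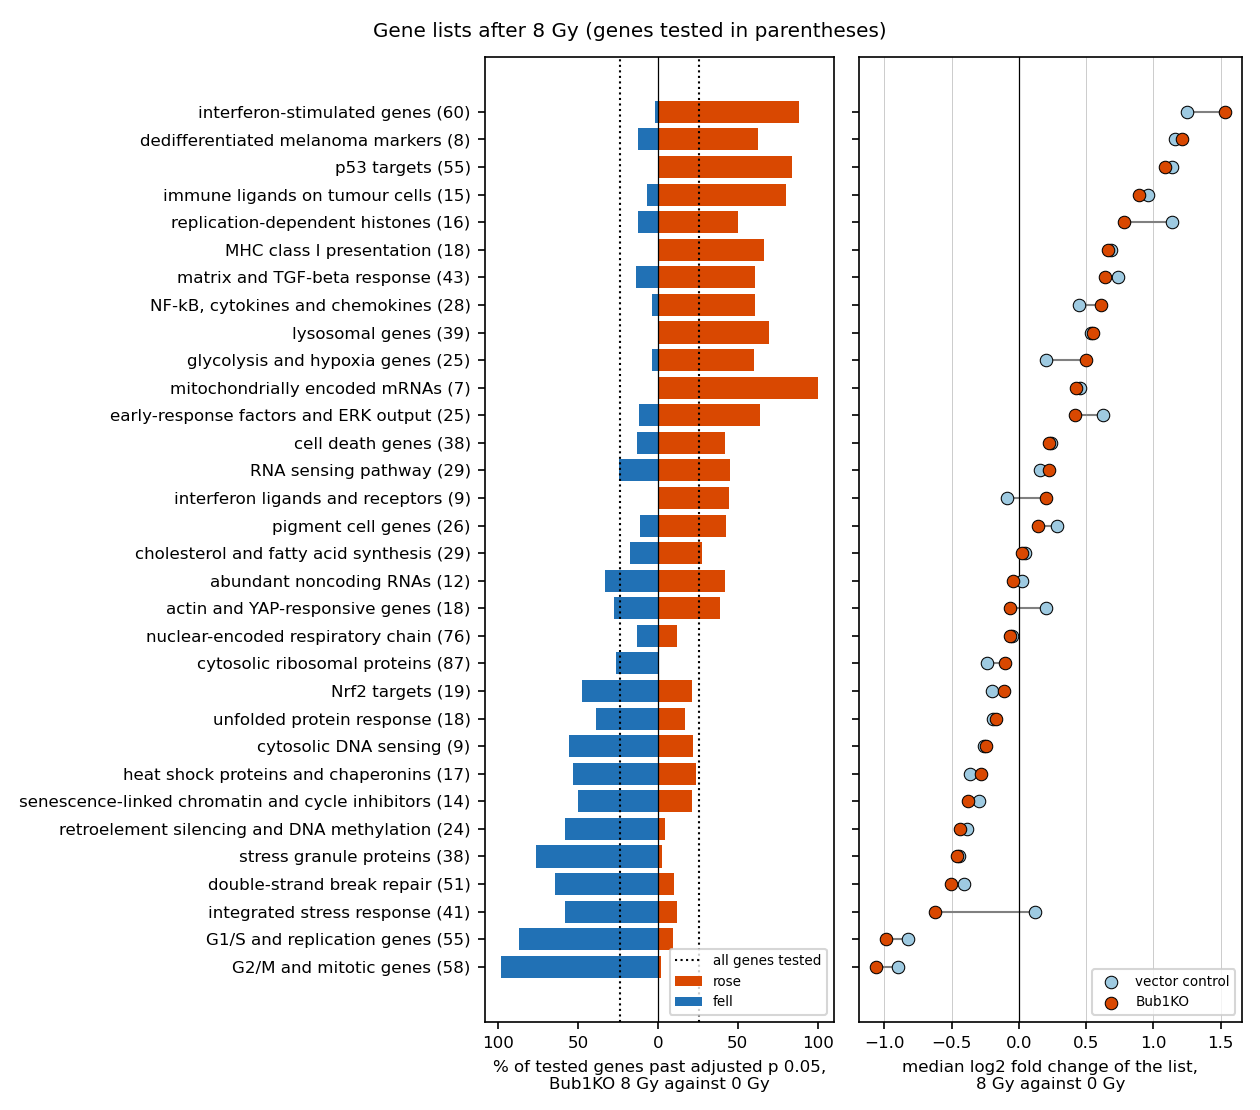
Left, percent of the tested genes of each list that rose or fell in Bub1KO cells after 8 Gy (limma adjusted p under 0.05), with dotted lines at the shares of all genes, 25.4% and 23.9%. Right, median log2 fold change of each list in Bub1KO and VC cells; the medians lie close together except in a few lists, with the widest gap for the integrated stress response (-0.62 and 0.12).

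In the integrated stress response of irradiated Bub1KO cells, genes of amino acid supply fell and regulators were mixed. Of 41 genes tested 24 fell, 5 rose and 12 did not pass, with a median of -0.62. Without untreated replicate 1, 27 fell and 5 rose. Of the 15 regulators 5 fell, 4 rose and 6 did not pass (median -0.074), where 23.9% of all genes fell and 25.4% rose. Those that fell were Atf4, Trib3, Chac1, Cebpg and Eif2ak1. Atf4, the transcription factor of the program, had 12661, 15659 and 14741 normalized counts untreated and 7619, 6401 and 6071 irradiated (log2 fold change -1.10, SE 0.0974, limma adjusted p = 8.71e-07). The groups were well apart, with the lowest untreated library at 12661 and the highest irradiated library at 7619. Trib3, a pseudokinase induced by Atf4, went from 1329, 3159 and 2295 to 1272, 798 and 784 (log2 fold change -1.20, SE 0.246, limma adjusted p = 0.00114). The glutathione-degrading enzyme gene Chac1 fell from 618, 1476 and 1297 to 549.99, 387 and 386 (log2 fold change -1.28, SE 0.244, limma adjusted p = 0.000648). For these last 2 genes untreated replicate 1 was the lowest of its group and irradiated replicate 1 the highest of its own, so the groups came close to each other without overlapping.

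Genes that supply amino acids and charge tRNAs made up most of the fall. Of 26 such genes 19 fell and 1 rose (median -0.68), or 22 and 1 without untreated replicate 1. Asns, asparagine synthetase, went from 8508, 8972 and 7630.4 to 4718, 4450.3 and 4376 (log2 fold change -0.89, SE 0.0733, limma adjusted p = 4.66e-07), and Mthfd2, of the mitochondrial folate cycle, from 9159.8, 10930.2 and 9182 to 4864, 3869.9 and 4108 (log2 fold change -1.19, SE 0.0912, limma adjusted p = 2.41e-07). Slc1a4, a serine and alanine transporter, went from 1728, 2265 and 1817 to 940.03, 728 and 695 (log2 fold change -1.30, SE 0.121, limma adjusted p = 1.35e-06). Groups did not overlap for any of the 3. The serine synthesis gene Psat1 fell from 13486 ± 971 to 6698 ± 259 and Mars, methionyl-tRNA synthetase, from 4495 ± 456 to 2045 ± 98.2. The 5 members that rose were Sesn2, Ppp1r15a, Slc7a3, Ddit3 and Ddit4. Sesn2, also a p53 target, went from 1227 ± 267 to 1792 ± 156, and Ppp1r15a, the eIF2 phosphatase subunit GADD34, from 387 ± 122 to 605 ± 34.8. Ddit3 and Ddit4 each lost their call in 2 of 18 settings (adjusted p at most 0.0624 and 0.515).

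Here the response of Bub1KO cells differed from that of VC cells. In VC 17 of the 41 rose and 8 fell, with a median of 0.12, where 27.6% of all genes rose and 25.8% fell (53.4% in all). The interaction, the change in Bub1KO minus the change in VC, passed for 22 of the 41, all with a lower value in Bub1KO, against 0.55% of all genes (81 of 14721). Of the 81, 20 (0.136% of genes tested) were higher and 61 (0.414%) lower, and leaving out any 1 of the other 11 libraries gave between 33 and 86. Without untreated Bub1KO replicate 1 it passed for 32, again all lower, against 339 higher and 1108 lower (7.53%) of all genes. Trib3 rose in VC from 271 ± 7.72 to 936 ± 98.6 while it fell in Bub1KO (interaction -2.98, SE 0.348, limma adjusted p = 0.00119, and -3.31 without untreated Bub1KO replicate 1). Chac1 rose in VC from 153 ± 1.52 to 485 ± 39.3 (interaction -2.94, SE 0.345, limma adjusted p = 0.00119, and -3.33 without that library). Asns was at 4268 ± 269.9 and 4626 ± 66.1 in VC (interaction -1.01, SE 0.104, limma adjusted p = 0.000754), and Atf4 fell there less than in Bub1KO, from 7514 ± 531 to 6263 ± 266 (interaction -0.84, SE 0.138, limma adjusted p = 0.0134). Atf3, a stress-induced repressor, rose in VC from 148 ± 12.8 to 551 ± 39.6 and was at 407 ± 69.7 and 455 ± 40.4 in Bub1KO, where its groups overlapped (interaction -1.72, SE 0.18, limma adjusted p = 0.000754). Ddit3 and Ddit4 rose in both genotypes, but less in Bub1KO. Ddit3 had a log2 fold change of 0.63 in Bub1KO and 1.94 in VC (interaction -1.31, limma adjusted p = 0.0416). Ddit4 had 0.42 and 1.38 (interaction -0.96, limma adjusted p = 0.0171). After irradiation Trib3 was at 951 ± 278 in Bub1KO, beside 936 ± 98.6 in VC, while before it was at 2261 ± 915 and 271 ± 7.72. Asns ended at 4515 ± 179.7 in Bub1KO, beside 4626 ± 66.1 in VC, from 8370.4 ± 681 and 4268 ± 269.9.

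**Figure D3:**
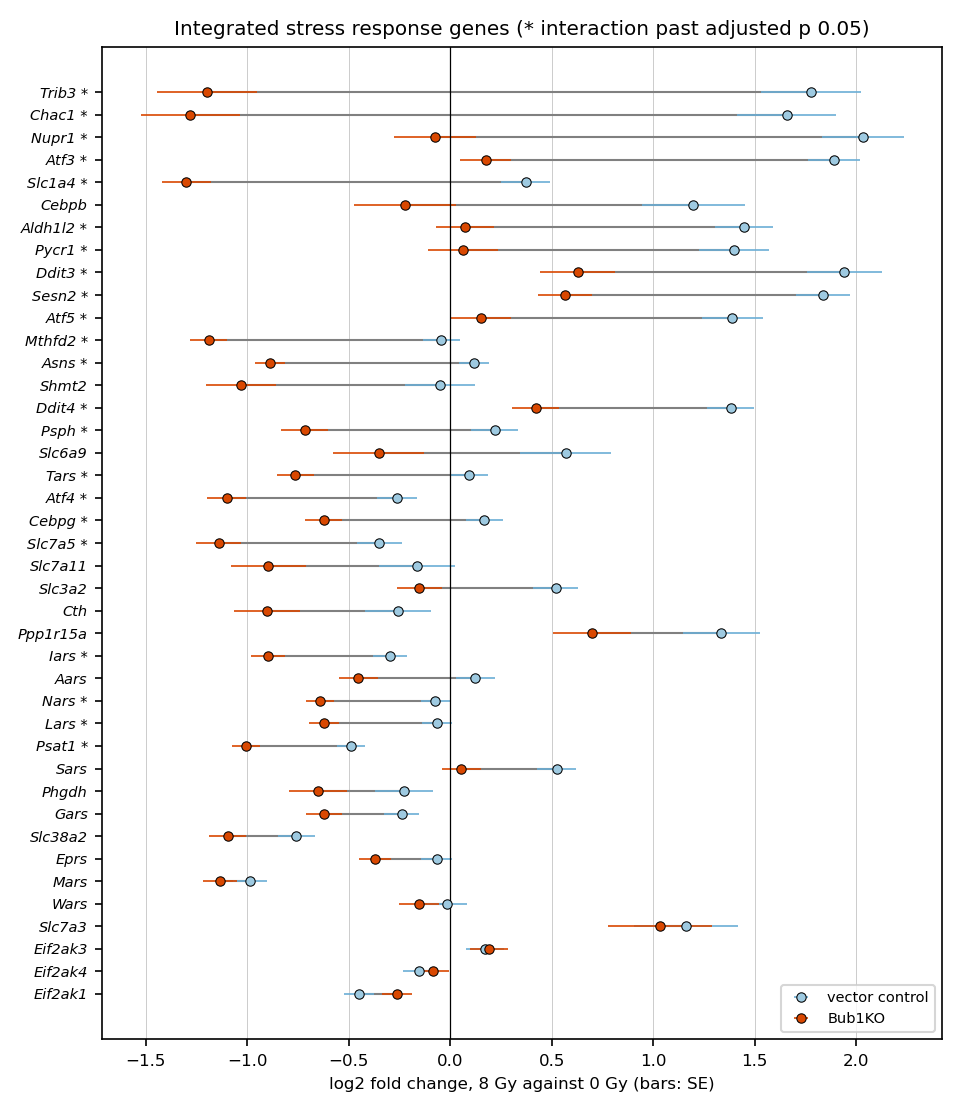
Log2 fold change with 8 Gy of the 41 tested genes of the integrated stress response in VC and Bub1KO cells (points, bars are SE), ordered by their difference, with a star where the interaction passed a limma adjusted p of 0.05. The Bub1KO value lies left of the VC value for nearly all genes, with the widest gaps for Trib3 and Chac1, and 22 carry a star.

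Other stress programs were mixed. Of 18 genes of the unfolded protein response of the endoplasmic reticulum (chaperones, degradation factors and sensors) 3 rose and 7 fell (median -0.17). Herpud1, of endoplasmic reticulum degradation and also an Atf4 target, fell in Bub1KO from 3547 ± 357 to 1966 ± 156 and was at 1796 ± 27.5 and 1959 ± 68.5 in VC (interaction -0.97, SE 0.116, limma adjusted p = 0.00124). The chaperone cofactor gene Dnajb9 rose, as did the sensor genes Atf6 and Ern1, from 1931 ± 112 to 2542 ± 237 and from 475 ± 48 to 749.7 ± 83.1. Of 17 heat shock and chaperonin genes, most of them cytosolic, 4 rose and 9 fell, and the falls included the mitochondrial chaperonin pair Hspd1 and Hspe1. Hspd1 went from 23554 ± 2724 to 12250.1 ± 457, Hsph1 from 5674 ± 1024 to 2867 ± 233, and the small heat shock gene Cryab rose from 9404 ± 1791 to 12970.3 ± 657. Of 19 Nrf2 targets 4 rose and 9 fell (6 and 11 without untreated replicate 1). Hmox1, heme oxygenase, rose from 3658 ± 456 to 5756 ± 256, and Nqo1, a quinone reductase, fell from 596 ± 31.7 to 326 ± 30.6.

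Pigment genes rose in part, and their transcription factors did not. Of 26 tested 11 rose and 3 fell (median 0.14). Tyr, tyrosinase, the first enzyme of melanin synthesis, had 2946, 2406 and 2219 untreated and 4338, 4435 and 5109 irradiated (log2 fold change 0.88, SE 0.106, limma adjusted p = 1.33e-05). Trpm1, an ion channel of pigment cells, went from 667, 623 and 620.2 to 3658, 4010.4 and 3541 (log2 fold change 2.55, SE 0.0919, limma adjusted p = 3.55e-10), and Oca2, a melanosome channel, from 18.3, 18.1 and 21.1 to 270.4, 276 and 269.96 (log2 fold change 3.76, SE 0.161, limma adjusted p = 1.44e-09). These 3 genes had groups that did not overlap. Mitf, the regulator of the lineage, was at 13345, 12590.2 and 11575 and 11527, 11119 and 12515, with overlapping groups (log2 fold change -0.093, SE 0.0756, limma adjusted p = 0.331). Pax3 fell from 5813 ± 539 to 4644 ± 359 and Tfap2a from 3856 ± 207 to 2569 ± 220.3. The other member of the list that fell was Cdk2, a cell cycle kinase, from 13535 ± 678 to 10569 ± 569. Of 8 markers of dedifferentiated melanoma 5 rose and 1 fell. Axl, a receptor kinase, went from 76 ± 4.77 to 218 ± 15 and Sox9 from 77.4 ± 16.8 to 267 ± 65.6.

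Matrix and lysosomal genes rose. Of 43 genes of matrix and TGF-beta response 26 rose and 6 fell (median 0.64), and of 39 lysosomal genes 27 rose and 0 fell (median 0.56). Sparc, a collagen-binding matrix protein, went from 14208, 11945 and 12461 to 40072, 40319 and 38271 (log2 fold change 1.62, SE 0.0872, limma adjusted p = 1.09e-08), and Postn, periostin, from 692, 563 and 534 to 1828, 1948 and 2188 (log2 fold change 1.74, SE 0.0999, limma adjusted p = 1.99e-08). Postn also stands among the fibroblast markers, whose sum was 617 to 804 in untreated and 1897 to 2258 in irradiated Bub1KO libraries, and the part of other cells in the matrix list was not tested. Of the 3 fibroblast markers tested, Col1a1, a chain of type I collagen, rose as well, from 6.1, 7.4 and 5.27 to 18.6, 34.4 and 21 (log2 fold change 1.78, SE 0.326, limma adjusted p = 0.000477), and Pdgfra, a growth factor receptor, fell. Dcn and Lum, markers of the same list under the filter, had at most 6.19 in any of the 6 libraries. Id2, a target of TGF-beta and BMP signals, fell from 5017 ± 309 to 2177 ± 46.8. Ctsb, the protease cathepsin B, went from 10349, 9602 and 10210.4 to 27330.1, 28380.5 and 26771 (log2 fold change 1.45, SE 0.0688, limma adjusted p = 3.75e-09), and Ctsl from 7351 ± 646 to 13052 ± 701. Of 18 actin and YAP-responsive genes 7 rose and 5 fell (7 and 7 without untreated replicate 1). Cnn2, a calponin, went from 496 ± 104 to 1098 ± 13.4 and Tpm1, a tropomyosin, from 23719 ± 599.7 to 15909.6 ± 187.

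Among early-response factors and ERK output 16 of 25 rose and 3 fell (median 0.42). Fosl2, an AP-1 subunit, went from 177 ± 11.1 to 417 ± 12.7, and Spry2, a feedback inhibitor of ERK, from 209 ± 17.9 to 463 ± 54.2. Klf4, Myc and Spred1 fell, Myc from 1252 ± 86.3 to 839.6 ± 17.1. Of 25 genes of glycolysis and hypoxia 15 rose and 1 fell (median 0.50). Car9, a carbonic anhydrase induced by hypoxia, went from 261, 154 and 187 to 844, 856 and 967 (log2 fold change 2.17, SE 0.154, limma adjusted p = 1.19e-07), and Eno2 from 24.4, 28.8 and 27.4 to 276, 261 and 298 (log2 fold change 3.33, SE 0.156, limma adjusted p = 3.56e-09). Neither gene had overlapping groups. Gapdh, Pkm and Ldha did not pass.

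All 7 tested mitochondrially encoded mRNAs rose (median 0.42), mt-Co1 from 145799 ± 13508 to 222031 ± 16682, as the mitochondrial share of reads did. Of 76 respiratory chain genes of the nucleus 9 rose and 10 fell (6 and 14 without untreated replicate 1), and 0 of 87 cytosolic ribosomal protein genes rose while 23 fell (36 without it). The median was -0.068 in the first and -0.11 in the second. The 9 rises of the first include Cox6c2, annotated as a processed pseudogene, from 14.3 ± 1.33 to 36 ± 12.1. Of 29 genes of cholesterol and fatty acid synthesis 8 rose and 5 fell (8 and 8 without untreated replicate 1). Among 12 abundant noncoding RNAs 5 rose and 4 fell. Malat1, a nuclear long noncoding RNA, went from 28128, 24938 and 24264 to 84157, 77141 and 67638 (log2 fold change 1.56, SE 0.0978, limma adjusted p = 4.4e-08), and Trp53cor1, the p53-induced lincRNA-p21, from 184, 202 and 195 to 498, 517 and 548 (log2 fold change 1.42, SE 0.0992, limma adjusted p = 1.06e-07). Neat1, the scaffold of paraspeckles, rose from 1356 ± 31.1 to 2502 ± 144.

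The largest rises among abundant genes also held secreted and membrane proteins outside the lists. Spp1, the matricellular cytokine osteopontin, went from 11.2, 7.4 and 9.48 to 484, 439 and 418 (log2 fold change 5.45, SE 0.204, limma adjusted p = 4.41e-10). Cpz, a secreted carboxypeptidase, went from 2.03, 1.65 and 2.11 to 117, 106 and 130.3 (log2 fold change 5.34, SE 0.299, limma adjusted p = 1.71e-08), and Kcnj13, a potassium channel, from 3.05, 0.823 and 2.11 to 130.02, 128 and 108 (log2 fold change 5.43, SE 0.433, limma adjusted p = 3.45e-07). All 3 were near the filter or below it in untreated libraries and far above it in irradiated ones. C1s1, a complement protease, rose from 53.4 ± 6.68 to 922 ± 51.5, Bglap2, an osteocalcin gene, from 16.6 ± 8.28 to 318 ± 42.4, and Wfdc3 from 5.08 ± 0.952 to 247 ± 22.1. Reads of Bglap2 may be shared with its close copy. Among the largest falls Negr1, a neural adhesion protein, went from 145 ± 33.6 to 52.2 ± 19.99, Gcat, of threonine breakdown, from 105 ± 29.7 to 35.7 ± 8.77, and Sapcd2 from 505 ± 44.9 to 172 ± 8.43.

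Most of the response was common to both genotypes. Of the 3746 genes that rose in Bub1KO 2979 also rose in VC (79.5% of these and 73.3% of the 4065 in VC), and of the 3523 that fell 2918 also fell (82.8%, and 76.9% of 3796). The calls had opposite directions for 25 genes. VC medians were 1.14 for p53 targets and -0.90 for mitotic genes, and the interaction passed for 1 (lower) and 0 of their members (for 2 higher and 10 lower, and for 5 lower, without untreated Bub1KO replicate 1). For interferon-stimulated genes the VC median was 1.25 with 46 higher, and the interaction passed for 0 of 60. Without untreated Bub1KO replicate 1 it passed for 18, all higher in Bub1KO, against 2.3% of all genes. Among the 6 tested RNA sensors the interaction passed for Dhx58 alone, or for 2 genes without untreated Bub1KO replicate 1. Dhx58 rose in VC from 59.98 ± 0.987 to 117 ± 8.64 and more in Bub1KO, from 34.7 ± 7.26 to 291 ± 51.7 (interaction 2.09, SE 0.237, limma adjusted p = 0.00119).

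Of the 61 genes whose response was lower in Bub1KO, 10 fell in Bub1KO and rose in VC, 16 rose in VC without passing in Bub1KO and 16 rose in both. Ces2e, a carboxylesterase, went from 10.2 ± 2.16 to 103 ± 4.76 in VC and from 20.2 ± 2.94 to 35.7 ± 2.95 in Bub1KO (interaction -2.43, SE 0.286, limma adjusted p = 0.00119). Nupr1, a stress-induced chromatin protein, went from 116 ± 21.4 to 473 ± 58.9 in VC and was at 692 ± 208 and 644 ± 114 in Bub1KO (interaction -2.11, SE 0.285, limma adjusted p = 0.00277). Of the 20 with a higher response, 10 rose in both genotypes. Pygm, muscle glycogen phosphorylase, went from 9.5 ± 0.362 to 139 ± 7.14 in Bub1KO and from 10.2 ± 2.04 to 43.3 ± 3.43 in VC (interaction 1.75, SE 0.266, limma adjusted p = 0.00733). Etv5, an ETS factor of ERK output, rose from 76.6 ± 25 to 358 ± 21.4 in Bub1KO, with VC at 429 ± 26 and 743 ± 41.1 (interaction 1.46, SE 0.235, limma adjusted p = 0.012, and an adjusted p of 0.0503 in 1 of 23 settings). Adam12, a metalloprotease, rose in Bub1KO from 125 ± 10.2 to 193 ± 23.8 and fell in VC from 716 ± 68.6 to 472 ± 31.6 (interaction 1.21, SE 0.162, limma adjusted p = 0.00255).

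**Figure D4:**
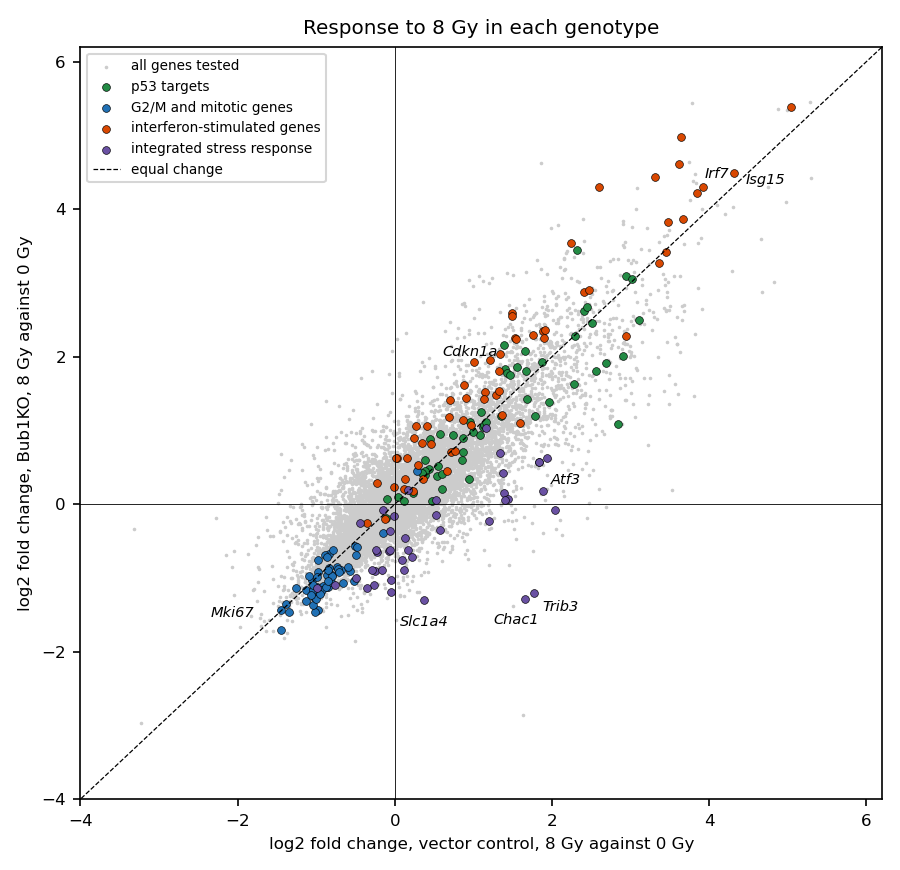
Log2 fold change with 8 Gy of the 14721 tested genes in VC (x axis) and Bub1KO (y axis); colours mark 4 gene lists and the dashed line equal change. Mitotic genes and most p53 targets lie near the line, while genes of the integrated stress response such as Trib3 (1.78 in VC, -1.20 in Bub1KO) lie below it.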

How the data were processed

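RNA-seq was made from 12 libraries, 3 for each genotype and dose. Per the submitters' processing notes, the tools were Trim Galore, cutadapt, STAR, SAMtools and HTSeq with GRCm38.p6 (mm10). The sources used here do not give the strand setting, the annotation release or the treatment of multi-mapping reads. The authors deposited 2 tables of normalized counts (a signal: reads per gene divided by a size factor), joined here by gene identifier over 55421 genes. Whole reads could be recovered for 100% of values (tolerance 0.01 read).

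Values were tested as log2(value + 1) with limma 3.58.1 (trend, R 4.3.3) in 1 fit over the 4 group means, with Benjamini-Hochberg adjustment over 14721 genes and a threshold of 0.05. Fold changes on that scale understate those of low genes. The interaction was the Bub1KO change minus the VC change. In data simulated for Bub1KO at 8 Gy over 14721 genes, the fit recovered 44% of genes changed by 0.5 on the log2 scale, 99% at 1 and 100% at 2, with 6 false calls. Only 50, 100 and 50 genes were changed at these sizes, far fewer than passed in the data. The adjusted p was therefore harder to pass in the simulation. Alternatives were edgeR 4.0.16, DESeq2 1.42.0 and, added after seeing the data, voom on recovered reads, other pseudocounts, filters and scaling, a GC correction, a replicate block and leaving out each library. Named genes were a set of readouts, the 12 largest rises and falls with a group mean of at least 100 and groups that do not overlap, the members of each list with the smallest p in each direction (up to 4, or all where 5 or fewer passed), and the largest interactions. Other genes named were chosen after their values were seen, and a few genes are not reported here. Members and lists were chosen with earlier results of these data known. Gene coordinates are those of GENCODE for GRCm38.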

Additional observations from a re-analysis of the deposited data

Results flagged for a closer look

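The change with 8 Gy differed between Bub1KO and VC cells, by the limma interaction test, for the genes below. Values are log2 differences, Bub1KO change minus VC change. In the integrated stress response, all were negative: Trib3 -2.98, Chac1 -2.94, Nupr1 -2.11, Atf3 -1.72, Slc1a4 -1.67, Sesn2 -1.27 and Asns -1.01. Herpud1, of endoplasmic reticulum degradation, had -0.97.

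Among other genes with a negative difference, Hrk, a BH3-only killer, had -3.33, a value that rests on few reads. It passed the filter through irradiated VC alone (22.8, 19.97 and 27.9), with untreated VC at 0.829, 1.29 and 1.26 and Bub1KO at 2.03, 4.11 and 7.37 untreated and 5.16, 5.06 and 4.2 irradiated, all under 10, and its call ended in 3 of 21 settings. Ces2e had -2.43, Brd3os -1.85 and Hs3st1 -1.73; the name of Brd3os places it opposite Brd3, and without the strand setting reads of an overlap cannot be told apart. Id2 had -0.67, the orphan receptor gene Nr4a3 -0.79, and Rab27a, which moves melanosomes, -0.54 (ended in 4 of 23 settings). Ankdd1b had -1.79, Rn7sk -1.67, the ribosomal protein gene Rps13 -0.97, and the respiratory chain genes Uqcrq -2.32 and Ndufb11 -0.89. Ccl5 had -0.87, and its call ended in 16 of 23 settings. Those of Uqcrq, Ndufb11, Ankdd1b, Rps13 and Rn7sk ended in 12, 9, 8, 8 and 4.

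Among genes with a positive difference, Dhx58 had 2.09, Pygm 1.75, Etv5 1.46, Cd68 1.24, Adam12 1.21 and Egln3, a prolyl hydroxylase of the hypoxia response, 1.13. The homeobox gene Hoxa11 had 0.89, and Adamts1, a secreted protease, 0.64. The calls of Adamts1, Egln3, Cd68 and Etv5 ended in 13, 13, 7 and 1 of 23 settings.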

How the results depend on the processing

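No named gene that passed in the main fit changed direction under any setting, in Bub1KO cells or for the interaction. Named genes that did not pass were left out of this count. Of 257 named genes 248 passed in Bub1KO, and 30 of them lost the call under at least 1 setting; 139 of 4455 combinations of gene and setting ended a call. Leaving out each library gave 6141 to 7567 changed genes in Bub1KO (3165 to 3742 higher, 2976 to 3825 lower), with 1424 to 1595 at least 2-fold higher and 268 to 318 lower, and 6733 to 7120 in VC. With GC trends removed from each library, 3970 genes rose and 4017 fell in Bub1KO, against 3746 and 3523 in the main fit. A filter of 50 left 803 genes at least 2-fold higher, against 1514, and 225 at least 2-fold lower, against 287. The excess of large rises was thus smaller among genes with higher counts.

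The count of interactions depended most on the settings. Against 81 (20 higher, 61 lower), DESeq2 gave 269 (86 and 183) and removing GC trends from each library 411 (121 and 290); the cause was not tested. Leaving out each library gave 33 to 1447 (8 to 339 higher, 25 to 1108 lower), and the upper ends came from leaving out untreated Bub1KO replicate 1 (33 to 86 without any other library). Of 30 named genes with an interaction 12 lost it under at least 1 setting.

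Same-numbered libraries did not deviate together: their correlations between untreated and irradiated Bub1KO were -0.0109, -0.00619 and -0.108, so the numbers were not taken as pairs. With the replicate block 3609 genes rose and 3358 fell in Bub1KO, and 47 interactions passed (12 higher, 35 lower), or 270 (81 and 189) with the block and GC trends removed. Each group had 3 libraries, with from 19380726 to 33087366 reads in each. The simulated recovery of 44% at 0.5 on the log2 scale came from data in which far fewer genes changed. It therefore does not give the detection limit of this comparison. Some changes under 0.5 passed, such as that of Dicer1 in Bub1KO cells (-0.35, limma adjusted p = 0.000921).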
